A study of Mus musculus with 6 samples.

Results

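The genes described here are those of the proteasome, chosen by name: every symbol that starts with Psm, one of the letters a to g, and a digit. The deposited table holds 44 such genes of 5538 in all. Of these, 16 encode the 20S core (Psma and Psmb), 23 the 19S regulatory particle, its assembly factors and the PA28 activators (Psmc, Psmd and Psme), and 5 an inhibitor-like factor and the assembly chaperones of the core (Psmf and Psmg). A list of 48 family members drawn up by role also names Psma8, Psmb9, Psmb11 and Psme4, which have no value in the table. The table holds only genes with at least 7 TPM (a transcript abundance scaled for transcript length and library total) in every library, so the members seen are the well expressed ones and all 44 passed that limit in both groups.

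The proteasome is the barrel-shaped protease that degrades proteins tagged with ubiquitin. Its 20S core stacks rings of α subunits, which gate the entrance, on rings of β subunits, of which Psmb5, Psmb6 and Psmb7 carry the cutting sites. The 19S particle caps the barrel: its base has a ring of ATPases (Psmc) that unfold substrates, and its lid removes ubiquitin. In neurons the proteasome turns over synaptic and regulatory proteins, and its subunit genes are known to be transcribed in a coordinated way, in part through the transcription factor Nfe2l1.

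RNA came from the perioculomotor (pIII) region of the midbrain of C57BL/6 mice that carried CreER, a drug-dependent recombinase, under the promoter of the activity-induced gene Fos, together with a Cre-inducible reporter for the ribosomal protein L10a fused to eGFP. All mice had 6 hr of sleep deprivation and 3 hr of recovery sleep, and 4-OHT, the drug that activates CreER, was given just before either phase to mark wake-active or sleep-active neurons. The series text speaks of neurons of recovery sleep, but the labels of single libraries give no injection time, sex or age. The 3 IP libraries hold RNA recovered with eGFP antibodies, and the 3 Input libraries are taken, from their titles, as the RNA of the dissected tissue. Each repeat pooled 4 to 5 mice, and the labels do not say whether an IP and an Input library of the same number share a pool. The tag marks cells by Fos activity rather than by type, so an IP library can mix several neuron types and any RNA that binds without a tag. Chat, Isl1, Ucn and Cartpt, genes known from the oculomotor and Edinger-Westphal nuclei, are in the table. Every gene of the table has values in all libraries, so their presence does not show which cells were tagged.

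By its design text the study sought transcripts that tagged neurons hold in excess. Rpl10a, which the reporter carries, checks the recovery: its level was 559, 365 and 439 TPM in the IP libraries 1 to 3, and 117, 61.8 and 36.2 TPM in the Input libraries 1 to 3, with no overlap. The deposited TPM keep no read depth, so no counting error can be given. The median gene of a library ranged from 27.7 to 56.5 TPM in IP and from 31.1 to 67.2 TPM in Input, with IP 1 and Input 3 lowest in their groups. IP 1 also stands apart across all genes: the correlation of log2 levels with IP 2 was 0.962 for IP 3 and 0.831 for IP 1. For Inputs 1 to 3 the correlation with IP 2 was 0.855, 0.881 and 0.817. Input 3 was thus lowest, though these values do not compare the Inputs with each other. Levels are therefore given as log2(TPM + 1) minus the same value of the median gene in that library, called the relative level below, and results that rest on IP 1 or Input 3 are given with and without them.

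No proteasome gene passed the test between IP and Input. The libraries of the groups did not overlap for 6 of the 44 members, described below by role. In 5 of them IP was lower, an order that 9.71% of all genes had, and in 1 it was higher, as in 6.93% of all genes. Of the 44 members, 19 had a higher and 25 a lower mean relative level in IP, and their median difference was -0.04 on the log2 scale against 0.02 for all 5538 genes. The differences ran from -0.59 (Psme3) to 0.55 (Psmg4). A linear model fitted to all genes with limma called 0 members at an adjusted p of 0.05, and 0% of all genes were called (0 of 5538). Without adjustment, p in limma was under 0.05 for 0 members and for 7.42% of all genes (411). The smallest adjusted p of a member was 0.649, that of Psme3. Rpl10a, the check of the recovery, had the same adjusted p in limma with a log2 difference of 3.03 (SE 0.47). The absence of calls therefore does not show that members were alike in IP and Input. Without IP 1 and Input 3 limma called Rpl10a, at a difference of 2.51 (adjusted p 0.0035). That pair was left out because these same data showed it apart, so p-values of the fit without it may be too small. In tissue RNA a difference between IP and Input would not tell fewer cells of a type from less RNA per cell.

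**Figure D1:**
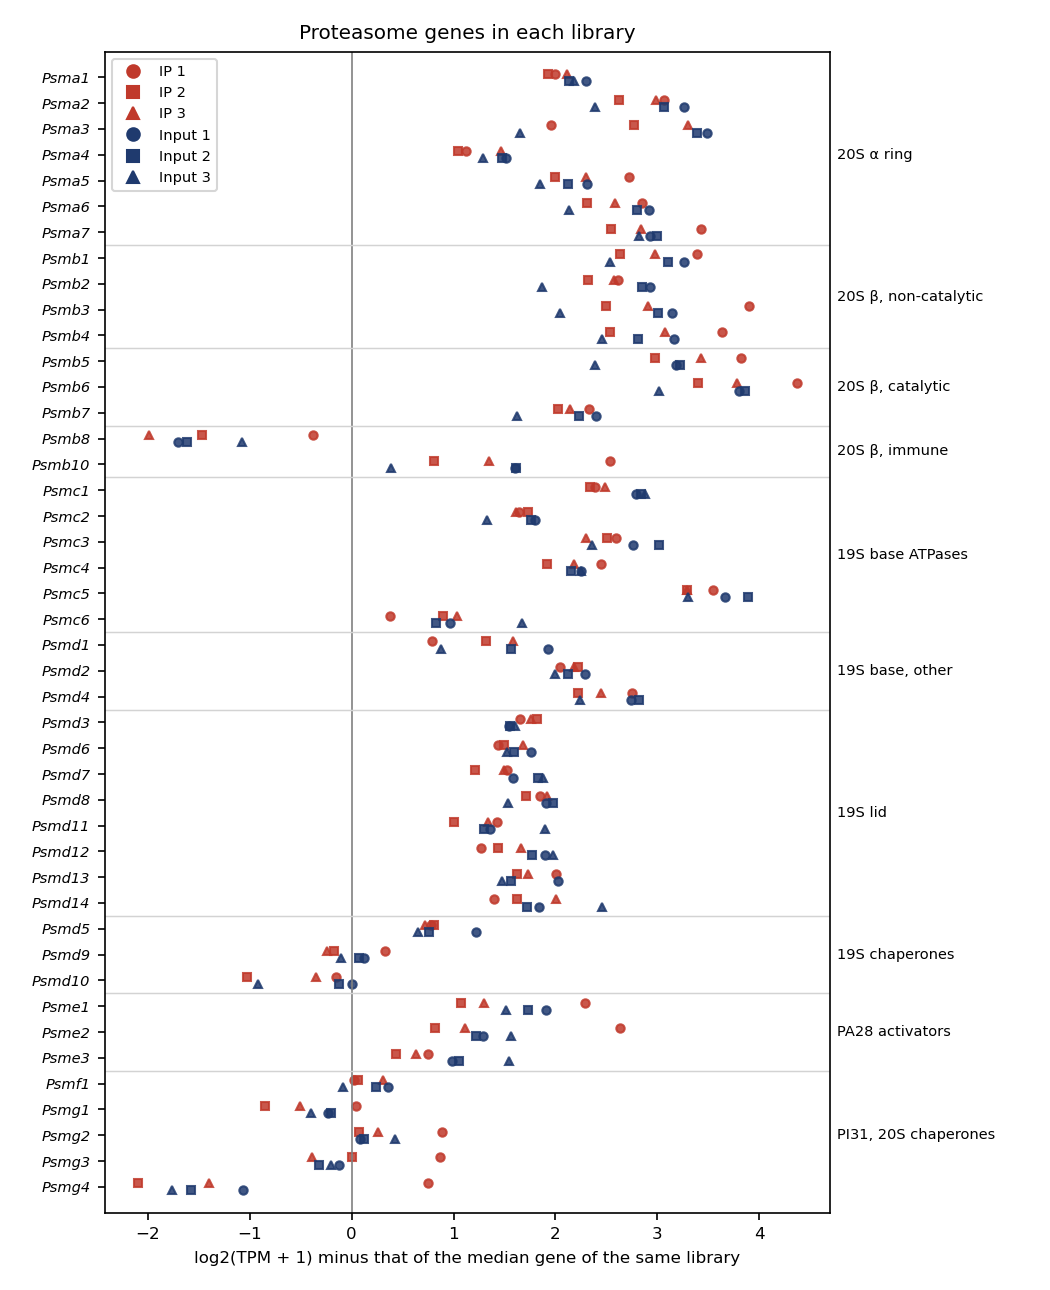
Relative level of each proteasome gene (log2(TPM + 1) minus the median gene of the same library, horizontal axis) in the 3 IP libraries (red) and 3 Input libraries (dark blue). The marker shape gives the replicate: circle 1, square 2, triangle 3. Most core and 19S genes lie between 1 and 4 units above the median gene, and red and blue points overlap for all but 6 genes.

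Proteasome genes were well expressed in every library. Summed over the 44 members, it took 6459, 8998 and 9684 TPM in the IP libraries and 13762, 13818 and 4935 TPM in Inputs 1, 2 and 3. As a share of all TPM in the table this is 0.746%, 1.05% and 1.09% in IP and 1.57%, 1.58% and 0.577% in Input. Inputs 1 and 2 thus held the most and Input 3 the least, and the groups overlap. The median relative level of the 44 members varied far less, between 1.66 and 1.97 in the 6 libraries. That median does not show a shift of the core, whose median relative level was 2.93 and 2.83 in Inputs 1 and 2 and 2.09 in Input 3. The level differed much more between members than between libraries: over all libraries Psmb6 had the highest mean (678 TPM), followed by Psmc5 (592 TPM) and Psmb5 (469 TPM), and Psmb8 the lowest (17.9 TPM).

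The α ring of the core (Psma1 to Psma7, all measured) has the role of gate and docking surface. Its members had mean levels of 129 TPM (Psma4) to 426 TPM (Psma3). The median relative level of the ring was 2.72, 2.31 and 2.58 in IP and 2.92, 2.80 and 2.13 in Input, so Inputs 1 and 2 were above and Input 3 below every IP library. In IP against Input, 2 of the 7 members had a higher and 5 a lower mean, with a median difference of -0.04. Psma3 spread most, with 110, 391 and 510 TPM in IP and 731, 713 and 99.5 TPM in Input. IP 1 and Input 3 were the low libraries of their groups, and its interval was the widest of the core (log2 difference -0.17, 95% interval -1.53 to 1.19). Psma1 had 113, 217 and 224 TPM in IP and 320, 297 and 144 TPM in Input, and its relative levels in IP (1.93 to 2.12) ended just under those in Input (2.13 to 2.30).

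The β ring holds the cutting sites. Psmb5, the chymotrypsin-like subunit (chromosome 14, 54614119 to 54618022 in GRCm38, which is mm10), had 404, 453 and 559 TPM in IP and 593, 636 and 167 TPM in Input. Its relative level was 3.82, 2.98 and 3.43 in IP and 3.19, 3.23 and 2.39 in Input, so the groups overlap, with IP 1 highest and Input 3 lowest. The log2 difference was 0.48 (SE 0.37, 95% interval -0.39 to 1.35), and it was -0.00047 without IP 1 and Input 3. Psmb6, the caspase-like subunit, had 590, 604 and 713 TPM in IP and 911, 991 and 258 TPM in Input (log2 difference 0.29, SE 0.40; -0.25 without those libraries). Psmb7, the trypsin-like subunit, had 143, 233 and 229 TPM in IP and 343, 319 and 97.5 TPM in Input (log2 difference 0.09, SE 0.30), and a gene on the other strand, Nek6, overlaps 34.9% of its exon bases, so its reads may be shared. For all 3 cutting subunits Input 3 was the lowest library and IP 1 had the highest or second highest relative level. The structural subunits Psmb1, Psmb2, Psmb3 and Psmb4 had mean levels of 312 to 410 TPM and differences of -0.04 to 0.37, with the same place for Input 3.

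Psmb8 and Psmb10 are the immune forms that replace Psmb5 and Psmb7 in cells exposed to interferon. Psmb8 had 21.0, 19.8 and 12.1 TPM in IP and 19.1, 21.3 and 14.2 TPM in Input (log2 difference 0.19, SE 0.43). Psmb10 had 165, 99.7 and 131 TPM in IP and 198, 208 and 40.9 TPM in Input (log2 difference 0.36, SE 0.53), and that turned to -0.53 without IP 1 and Input 3 (adjusted p 0.186 in limma). The groups overlap for both genes. Psmb5 was 19.3, 22.9 and 46.1 times as abundant as Psmb8 in IP and 31.1, 29.9 and 11.8 times in Input. The ratio of Psmb7 to Psmb10 was 0.865, 2.34 and 1.74 in IP and 1.73, 1.53 and 2.39 in Input, so Psmb10 had more TPM than Psmb7 only in IP 1. Of 10 names for antigen presentation by MHC class I, 7 were measured, 3 higher and 4 lower in IP, with a median difference of -0.06.

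The ATPase ring of the 19S base (Psmc1 to Psmc6) had a median relative level of 2.42, 2.13 and 2.24 in IP and 2.51, 2.49 and 2.31 in Input. Of its 6 genes only Psmc2 had a higher mean in IP and 5 had a lower one, with a group median of -0.25. Psmc1 (chromosome 12, 100110154 to 100123405) had 149, 290 and 290 TPM in IP and 451, 487 and 235 TPM in Input. Its relative level was tight in both groups, 2.39, 2.34 and 2.49 in IP and 2.79, 2.84 and 2.88 in Input, with no overlap. The log2 difference was -0.43 (SE 0.25, 95% interval -1.01 to 0.14, limma adjusted p 0.701) and lay between -0.47 and -0.40 with each library left out in turn. Psmc5, the most abundant 19S gene, had 333, 561 and 507 TPM in IP and 827, 1008 and 314 TPM in Input (log2 difference -0.24, SE 0.30; -0.49 without IP 1 and Input 3). Psmc6 had 36.3, 106 and 106 TPM in IP and 126, 120 and 101 TPM in Input (log2 difference -0.39, SE 0.32). The difference was -0.13 without Input 3, -0.19 without IP 1 and 0.067 without both.

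The other base subunits Psmd1, Psmd2 and Psmd4, the last of which is a ubiquitin receptor, had differences of -0.23 to 0.01, all with overlapping groups. The lid (Psmd3, Psmd6, Psmd7, Psmd8, Psmd11, Psmd12, Psmd13 and Psmd14) had gene means of 129 to 181 TPM. Of its 8 genes, 3 had a higher and 5 a lower mean in IP, and the group median was -0.18. Psmd12 (chromosome 11, 107479484 to 107504362), a structural lid subunit, had 68.2, 155 and 163 TPM in IP and 242, 231 and 125 TPM in Input. The relative levels were 1.27, 1.44 and 1.66 against 1.89, 1.77 and 1.97, with no overlap (log2 difference -0.42, SE 0.24, 95% interval -0.99 to 0.15, limma adjusted p 0.701). Psmd7, which pairs with the deubiquitinase Psmd14, had relative levels of 1.53, 1.22 and 1.49 in IP and 1.59, 1.83 and 1.88 in Input, again without overlap (log2 difference -0.35, SE 0.24). Psmd3 was the only member with every IP library above every Input, at 1.65, 1.82 and 1.76 against 1.54, 1.56 and 1.60. Its difference was 0.18 (SE 0.23), and on uncentred TPM it was -0.068. Psmd14, the lid enzyme that cuts ubiquitin off, had 74.4, 176 and 207 TPM in IP and 232, 224 and 175 TPM in Input (log2 difference -0.33, SE 0.31), which was 0.032 without IP 1 and Input 3.

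PA28 is a cap that opens the core without ATP. Psme3, the nuclear PA28γ (chromosome 11, 101316213 to 101323537), had 47.1, 76.7 and 79.5 TPM in IP and 128, 140 and 92.6 TPM in Input. It was the only member whose TPM did not overlap even before centring. The relative levels were 0.75, 0.43 and 0.63 in IP and 0.98, 1.05 and 1.55 in Input and the log2 difference was -0.59 (SE 0.26, 95% interval -1.19 to 0.02, limma adjusted p 0.649, unadjusted p 0.0556). It stayed between -0.69 and -0.41 with each library left out. The interferon-induced Psme1 and Psme2, which form the other PA28 and lie close together on chromosome 14, had overlapping groups. Psme1 had 139, 120 and 127 TPM in IP and 244, 225 and 90.7 TPM in Input (log2 difference -0.16, SE 0.36), and without IP 1 and Input 3 it had the smallest adjusted p of all members (log2 difference -0.63, adjusted p 0.089). Psme2 had 177, 100 and 111 TPM in IP and 158, 158 and 93.8 TPM in Input (log2 difference 0.16, SE 0.48), with IP 1 highest. The difference of Psme2 was -0.29 without IP 1 and Input 3, and its near-copy Psme2b may share its reads, as may the pseudogenes Psmb5-ps, Psmb6-ps, Psmb6-ps2 and Psmb7-ps2 for those subunits.

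The helpers of assembly lay in the lower part of the range of members. The chaperones of the 19S base, Psmd5, Psmd9 and Psmd10, had mean levels of 91.3, 49.5 and 38.9 TPM and differences of -0.16 to -0.06, all with overlapping groups. Psmg1 to Psmg4 help build the α ring, and Psmf1 (PI31) binds the core. These 5 genes had mean levels of 23.2 to 59.3 TPM, with 3 higher and 2 lower in IP. Psmg4 had 47.3, 12.4 and 18.7 TPM in IP and 30.2, 21.9 and 8.48 TPM in Input, and its difference of 0.55 (SE 0.68) came from IP 1, since it was -0.28 without that library. Psmg3 had 51.2, 56.6 and 38.6 TPM in IP and 59.2, 53.7 and 26.9 TPM in Input (log2 difference 0.37, SE 0.34), and its difference was 0.019 without IP 1.

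**Figure D2:**
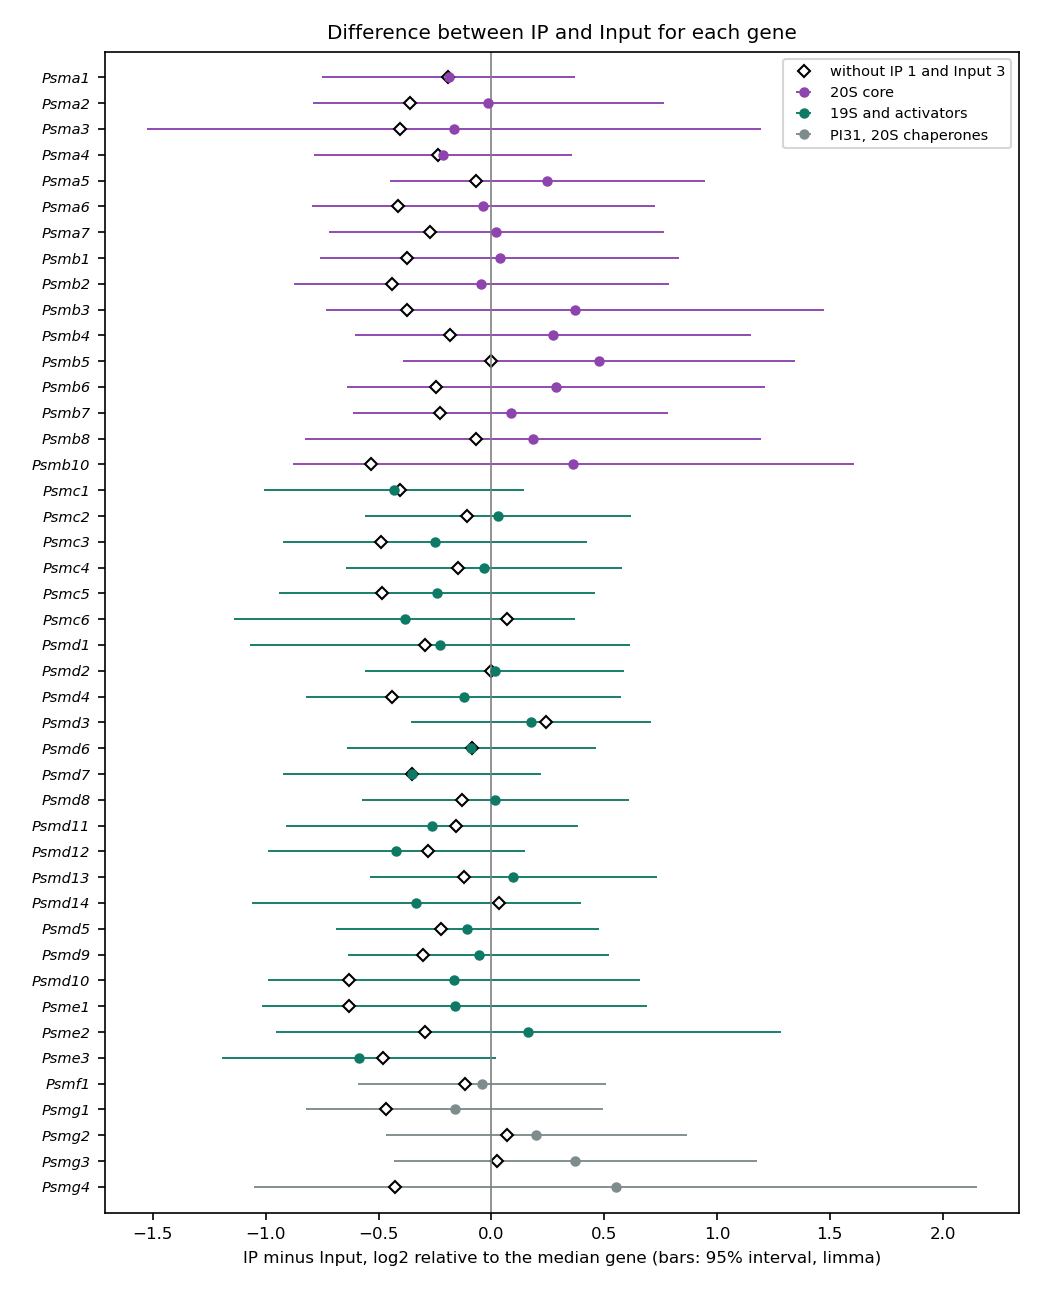
IP minus Input for each proteasome gene (log2, relative to the median gene, horizontal axis), with points for all 6 libraries, bars for the 95% interval from limma, and open diamonds for the same difference without IP 1 and Input 3. Every bar crosses 0, and the diamonds of 39 of the 44 genes lie below 0.

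Among all members, 5 had every IP library below every Input in relative level (Psma1, Psmc1, Psmd7, Psmd12 and Psme3), where 9.71% of all genes had this order, and 1 (Psmd3) had the reverse order, where 6.93% of all genes had it. As shares of 44 members these counts are near or below the background of all genes.

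The core and its caps can be set side by side within each library, where the scaling of the library cancels. The median relative level of the 16 core genes was 2.79, 2.41 and 2.71 in IP and 2.93, 2.83 and 2.09 in Input, and that of the 23 genes of the 19S and the activators was 1.64, 1.49 and 1.66 in IP and 1.83, 1.72 and 1.60 in Input. The core median exceeded the other by 1.15, 0.91 and 1.05 log2 units in IP (mean 1.04 ± 0.12, SD, n = 3) and by 1.09, 1.11 and 0.49 in Input (mean 0.89 ± 0.35, SD, n = 3). The IP values lie close to those of Inputs 1 and 2, and Input 3 alone is low. The difference between the groups of 0.14 is smaller than the spread among Inputs, and it was -0.06 without Input 3, 0.09 without IP 1 and -0.12 without both. With the activators left out of the second group, the gaps were 1.20, 0.78 and 1.004 in IP and 1.06, 1.09 and 0.31 in Input.

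The median difference between IP and Input was 0.06 for the core (10 of 16 higher in IP) and -0.16 for the 19S and activators (6 of 23 higher), beside 0.02 for all genes (51.8% higher). Without Input 3 the medians were -0.10 for the core and -0.14 for the 19S and activators, and without IP 1 they were -0.10 and -0.24. In IP 1 the core stood 0.58 above its level in IP 2 and IP 3 (13 of 16 genes higher) and the 19S and activators 0.17 above (14 of 23 higher), where the median gene of the table moved by 0.09. In Input 3 the core stood 0.71 below Inputs 1 and 2 (15 of 16 lower), and the 19S and activators 0.20 below (13 of 23 lower), where the table moved by 0.01. Without both libraries the medians came together, at -0.26 for the core and -0.28 for the 19S and activators.

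**Figure D3:**
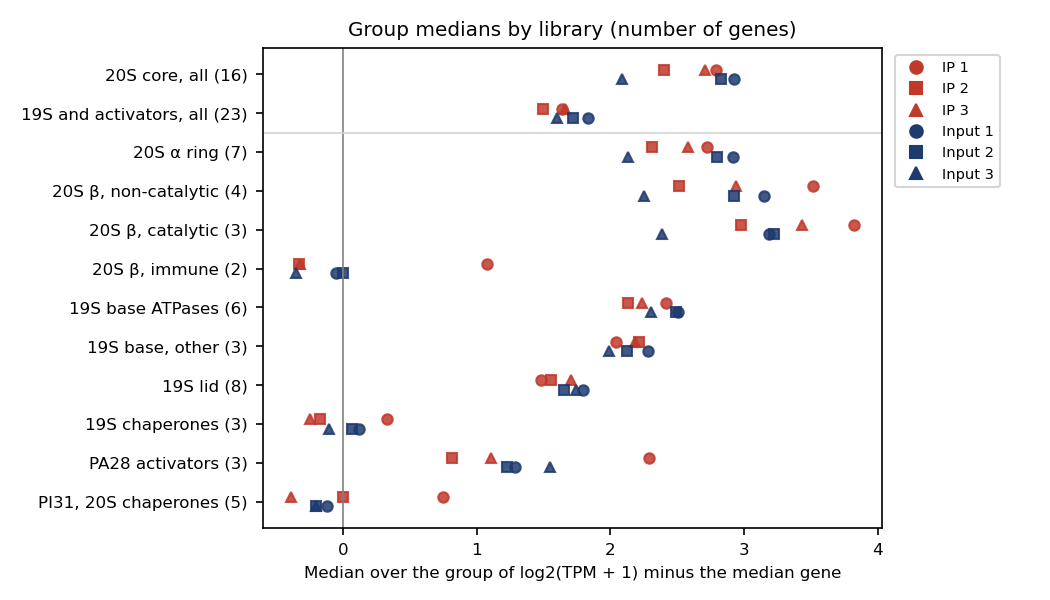
Median relative level of each group of proteasome genes (log2, horizontal axis) in IP (red) and Input (dark blue) libraries. The marker shape gives the replicate (circle 1, square 2, triangle 3), and brackets give the number of genes. Input 3 is the lowest library for the α ring and the catalytic and non-catalytic β groups, while IP 1 is the highest for the β, activator and chaperone groups.

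Without IP 1 and Input 3, with 2 libraries in each group, 39 of the 44 members (88.6%) had a lower mean relative level in IP, against 53.8% of all genes. The members' median was -0.26 and that of all genes -0.04. All 16 core genes were lower there, as were 20 of the 23 genes of the 19S and activators. Limma called 0 members in either direction at an adjusted p of 0.05, where it called 3.38% of all genes higher and 2.89% lower. The members with an unadjusted p under 0.05 there were Psme1, Psmc5, Psme3, Psmc3, Psmd10, Psmb10, Psmd4 and Psmb2, and each had the lower mean in IP. These are 8 of 44 members, where 23.6% of all genes had such a p in either direction (1309) and 12.5% with a lower mean in IP (692). Psmd3 had the largest positive difference in that comparison, at 0.24. Oligodendrocyte markers moved with the same libraries: their sum over 5 measured of 10 genes was 357 TPM in IP 1 and 528 TPM in Input 3, and 2889 to 4770 TPM in the other 4 libraries. Astrocyte markers (6 measured of 11) summed to 864 TPM in IP 1 and 827 TPM in Input 3, and 2194 to 4043 TPM elsewhere. These sums are uncentred, and the median gene was low in both libraries too. In median relative level oligodendrocyte markers stood at 0.78 in IP 1, 1.40 in Input 3 and 2.40 to 3.34 elsewhere. Astrocyte markers stood at 0.26 in IP 1 and 0.62 in Input 3. They stood at 0.75 and 0.73 in IP 2 and IP 3 and at 1.58 and 1.61 in Inputs 1 and 2. By relative level Agt was lowest in IP 1 and Input 3, but Gfap was highest in Input 3 and S100b in IP 1. Of 9 endothelial markers, Ly6c1, Ly6a and Bsg were measured and Cldn5 and Pecam1 have no value. Their sum was 381 to 1153 TPM in IP and 457 to 803 TPM in Input, and Bsg made up most of it. The differences were 1.92 for Ly6c1, 1.45 for Ly6a (the median of the 3) and -0.15 for Bsg. Ly6c1 was higher in every IP library than in every Input, while the groups overlap for Ly6a and Bsg. Ly6c1 and Ly6a were highest in IP 2, at 278 and 175 TPM, against 25.95 to 67.32 TPM in IP 1 and IP 3. The part of these cells in the proteasome values was not tested.

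Transcript length moved with the level in IP 1. Over 5354 genes with a length in the annotation, the 1571 with transcripts under 1500 bases stood 0.61 above their level in IP 2 and IP 3 in that library, and the 3783 longer ones 0.13 below (a median of -0.13; Spearman correlation with length -0.47 across genes). Core genes are short, with a median of 1162 bases, and genes of the 19S and activators longer, with a median of 1591. Across the 44 members the correlation of the IP 1 value with length was -0.63, and that of the difference between IP and Input -0.48, while over all genes the latter was -0.0028. Within the 8 short genes of the 19S and activators the median in IP 1 was 0.41 above IP 2 and IP 3, and within the 15 longer ones it was -0.02. The 4 core genes with longer transcripts stood 0.42 above, and the 12 short ones 0.60 above. In IP 2 and IP 3 against Inputs 1 and 2, short genes of the whole table had a median of -0.22 and longer ones 0.02 (correlation with length 0.33), with 69.8% and 47.7% lower in IP. The 24 short members had a median of -0.26 there (22 lower) and the 20 longer members -0.25 (17 lower). For Input 3 the order differs: core genes stood 0.71 below Inputs 1 and 2 whether short or long, where short genes of the whole table stood 0.11 below. Genes are not independent replicates, and the part of length in the contrast between core and cap was not tested.

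**Figure D4:**
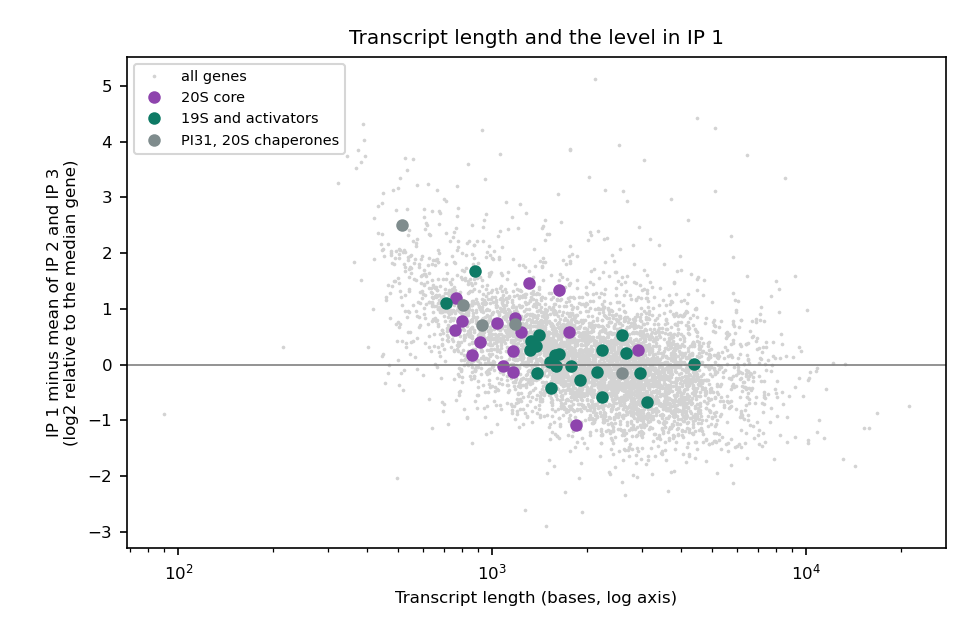
Relative level in IP 1 minus the mean of IP 2 and IP 3 (log2, vertical axis) against transcript length (bases, log axis) for all genes (grey) and for proteasome genes by class. Short transcripts lie higher in IP 1, core genes gather at the short end, and Psmg4, the shortest member, lies highest of the proteasome genes.

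Promoter windows from RefSeq (GRCm38.p6) were found for 37 of the 44 members, as 40 windows, and the 250 bases before each start site were searched on both strands. Psmb1, Psmb2, Psmb7, Psmc3, Psmd3, Psmd7 and Psmg2 had no window. The ETS motif CCGGAAG stood in 12 of the 40 windows (30%), against 6.91% of 32851 windows of all genes. It was found in 10 of 22 windows of the 19S and activator genes and in 1 of 14 of the core. Among the 4288 genes of the table that have a window, 18.7% hold the ETS letters, against 29.7% of the 37 members. The GC box GGGCGG stood in 52.5% of member windows against 32.7% of all, the NF-Y box CCAAT in 30% against 33.8%, and an antioxidant response element TGACNNNGC, the kind of site that Nfe2l1 binds, in 12.5% against 10.2%. Counted by gene, members lie below the measured genes for these 3 motifs: 54.1% of members and 65.5% of measured genes hold the GC box, 32.4% and 41.6% the NF-Y box, and 13.5% and 14.3% the antioxidant element. The cyclic AMP element TGACGTCA was found in 0 member windows, 1.55% of all windows and 3.85% of measured genes. Matches of different motifs overlapped only in Psmd9 (antioxidant element and GC box). The 11 members with the ETS letters had a median difference between IP and Input of -0.16 and the 26 without them 0.0019, and in the whole table the medians were 0.01 and 0.02. Most member windows with these letters belong to 19S and activator genes, and a relation between motif and level was not tested.

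The windows below belong to 3 members whose IP libraries all lay under all Inputs and that hold the ETS letters (Psmc1, Psmd12 and Psme3), and to the cutting subunits Psmb5 and Psmb6, which hold the antioxidant element and not the ETS letters. They were picked for these traits. The 2 motifs do not exclude each other: Psmd12 holds the antioxidant element as well, and Psmc6 also holds both. Of the other members with IP under Input, Psma1 has a window without the ETS letters and Psmd7 has no window. Psmc2 and Psmd2 hold the letters and had differences of 0.03 and 0.01, the only holders with a higher mean in IP. Each window below runs 5′ to 3′ on the gene's strand and ends at the base before the start site. Capitals mark every match to the motifs above, on either strand. The positions are chr12:100109952-100110201 (plus strand) for Psmc1, chr11:107479278-107479527 (plus) for Psmd12, chr11:101315963-101316212 (plus) for Psme3, chr14:54617996-54618245 (minus) for Psmb5 and chr11:70525107-70525356 (plus) for Psmb6.
Psmc1: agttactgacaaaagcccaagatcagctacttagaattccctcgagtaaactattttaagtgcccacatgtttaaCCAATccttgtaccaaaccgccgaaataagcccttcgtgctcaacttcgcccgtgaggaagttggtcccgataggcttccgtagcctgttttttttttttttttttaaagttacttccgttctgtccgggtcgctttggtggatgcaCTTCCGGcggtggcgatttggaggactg
Psmd12: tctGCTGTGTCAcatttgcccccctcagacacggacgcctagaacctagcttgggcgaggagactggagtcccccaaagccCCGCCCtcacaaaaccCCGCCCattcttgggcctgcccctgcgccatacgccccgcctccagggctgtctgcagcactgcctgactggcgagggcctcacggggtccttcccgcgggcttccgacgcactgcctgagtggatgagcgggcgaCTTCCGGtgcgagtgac
Psme3: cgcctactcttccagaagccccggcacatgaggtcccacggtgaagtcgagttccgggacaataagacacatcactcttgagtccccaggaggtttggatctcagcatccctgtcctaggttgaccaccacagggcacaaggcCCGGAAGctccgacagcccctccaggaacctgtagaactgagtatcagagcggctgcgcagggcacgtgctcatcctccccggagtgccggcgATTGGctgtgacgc
Psmb5: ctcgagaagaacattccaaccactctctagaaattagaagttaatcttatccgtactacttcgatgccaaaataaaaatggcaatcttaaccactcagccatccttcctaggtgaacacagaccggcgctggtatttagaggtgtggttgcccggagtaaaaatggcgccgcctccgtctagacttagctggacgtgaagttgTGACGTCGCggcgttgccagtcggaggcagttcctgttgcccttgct
Psmb6: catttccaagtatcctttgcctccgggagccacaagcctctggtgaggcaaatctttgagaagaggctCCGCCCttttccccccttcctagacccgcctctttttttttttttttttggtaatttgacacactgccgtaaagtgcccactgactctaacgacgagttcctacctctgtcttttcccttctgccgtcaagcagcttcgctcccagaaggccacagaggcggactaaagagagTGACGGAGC
In Psmc1 and Psmd12 the ETS letters lie within 30 bases of the start site, as CTTCCGG, the other strand's reading. In Psme3 they lie farther out, and the NF-Y letters are near the start instead. A match is a string of letters and not a site shown to be bound.

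Proteins that work with the proteasome but are not named Psm were counted from a list, of which 8 of 12 names were measured, 6 higher and 2 lower in IP with a median difference of 0.18. The counts were 4 higher and 4 lower without IP 1 and Input 3, with a median of -0.012. Adrm1, a ubiquitin receptor of the 19S, had 82.3, 171 and 120 TPM in IP and 165, 160 and 89.6 TPM in Input (log2 difference 0.08, SE 0.24). Pomp, the maturation factor of the core, had 376, 367 and 373 TPM in IP and 510, 584 and 214 TPM in Input (0.14, SE 0.35). The values of the 19S deubiquitinases in IP 1 lay far from the other libraries: Usp14 had 26.2, 134 and 149 TPM in IP and 210, 170 and 79.4 TPM in Input (-0.55, SE 0.43), while Uchl5 had 1235 TPM in IP 1, 142 and 186 TPM in IP 2 and IP 3, and 178, 160 and 141 TPM in Input. The Uchl5 difference was 1.25 (SE 1.003). Without IP 1 it was -0.032 for Uchl5 and -0.070 for Usp14.

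Upstream of the proteasome, 4 of 5 measured ubiquitin genes and activating enzymes (of 6 listed) and 6 of 11 measured shuttle and unfoldase genes (of 13 names) had a higher mean in IP, with medians of 0.24 and 0.0050. The counts were 3 of 5 and 4 of 11 without IP 1 and Input 3, with medians of 0.23 and -0.17. Of 10 listed regulators of proteasome genes 5 were measured and 4 were higher, with a median of 0.22. All 5 were higher without IP 1 and Input 3, with a median of 0.41. Nfe2l1, the factor that raises subunit genes when the protease is blocked, had 43.5, 123 and 83.7 TPM in IP and 116, 116 and 83.6 TPM in Input (log2 difference -0.19, SE 0.28). Mafg, a small Maf protein that pairs with it, had 319, 256 and 281 TPM in IP and 71.7, 43.2 and 106 TPM in Input, without overlap (log2 difference 2.27, SE 0.63, limma adjusted p 0.649). Without IP 1 and Input 3 limma called it, with a difference of 2.53 and an adjusted p of 0.00133.

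Complexes that share ancestry or architecture with the proteasome were counted in the same way. The COP9 signalosome, a relative of the lid, had 4 genes higher and 5 lower of 9 measured (10 listed), with a median of -0.12. Its subunit Cops4 had relative levels of 1.45, 1.33 and 1.71 in IP and 2.14, 2.08 and 1.95 in Input, without overlap (log2 difference -0.56, SE 0.25). The translation factor eIF3, another relative of the lid, had 9 higher and 3 lower of 12 measured (14 listed), with a median of 0.27, and the chaperonin CCT 3 higher and 5 lower of 8, with a median of -0.04. With all 6 libraries limma called 0 genes of these lists, and 0% of all genes, at an adjusted p of 0.05. Without IP 1 and Input 3 the median of eIF3 was -0.00045 and that of COP9 0.019, and limma called Mafg and Eif3a higher in IP and none of the other genes in these pathway lists. Of the markers of other cells it called Ly6c1 higher and Ntsr2 and Agt lower there.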

How the data were processed

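RNA sequencing libraries of 3 IP and 3 Input samples were compared. The authors deposited TPM for 5538 genes in 6 libraries, per the file headers. Per the submitters' processing notes RSEM, DESeq and build mm10 were used, with no versions or roles. No source used here names the aligner or says whether counting used strand. TPM were analysed as log2(TPM + 1), with the value of the library's median gene subtracted. IP and Input were compared for all genes with limma 3.58.1 in R 4.3.3 (lmFit, eBayes with trend, group as the only term), and p-values were adjusted by Benjamini-Hochberg across the table (threshold 0.05). Whether the fit can call genes when single libraries lie apart from their group was not tested. Intervals are limma's, at 95%. An exact permutation test of 3 against 3 libraries cannot go below a two-sided p of 0.1, so none is given.

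The members and gene lists were chosen with earlier results of these data known. Any member may be named. Of the other lists the rule names up to 3 measured genes with the smallest p, and always Rpl10a, Adrm1, Pomp, Usp14, Uchl5 and Nfe2l1; some of the genes it names are not described. Chat, Isl1, Ucn and Cartpt were added as tissue markers. The result of 1 marker list is not reported here. Gene positions, exon overlaps and lengths (median over protein-coding transcripts) are from GENCODE M21 (GRCm38), and promoters from RefSeq. Alternatives were uncentred TPM, centring on the upper-quartile gene, quantile normalization, a pseudocount of 0.1, genes with a mean of at least 20 TPM, a replicate block, and fits without 1 library or without IP 1 and Input 3. That last pair was listed because earlier results showed these libraries apart. Leaving out libraries that the same data showed apart can lower the spread within groups. The p-values of that fit may therefore be too small and its calls too many. The length comparison with its limit of 1500 bases, the motifs, and the genes recomputed under every alternative were chosen after values were seen. Because each replicate is 1 library from pooled mice, p-values describe variation among libraries, in which pools and library handling cannot be told apart.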

Additional observations from a re-analysis of the deposited data

How the results depend on the processing

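Limma called 0 proteasome members as reported and 0 under every alternative run. Over all genes it called 0 as reported, 0 to 17 with each library left out (17 without Input 3, of which 16 higher) and 347 without IP 1 and Input 3. The median of the 19S and activators was -0.16, and -0.41 on TPM as deposited, where the median gene moved by -0.23. It was -0.28 without IP 1 and Input 3, and -0.24 to -0.022 with each library left out. The core median was 0.06, and it was -0.18 on TPM as deposited, -0.08 after quantile normalization and -0.26 without IP 1 and Input 3. It lay between -0.10 and 0.22 with each library left out. The gap between core and cap lay between -0.06 and 0.25 in the same way. On TPM as deposited 8 members were higher and 36 lower in IP, against 19 and 25 as reported. Quantile normalization gave 13 and 31.

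Without IP 1 and Input 3 the sign turned for 18 of the 44 members, on TPM as deposited for 11 and under quantile normalization for 6. Among the genes followed under every alternative, a chosen subset, the pair's removal turned Psmb5 (-0.00047), Psmb6 (-0.25), Psmb7 (-0.23), Psmb8 (-0.070), Psmb10 (-0.53), Psmc6 (0.067), Psmd14 (0.032), Psme2 (-0.29), Psmg4 (-0.43), Nfe2l1 (0.10) and Pomp (-0.27). In that subset TPM as deposited turned Psmb7 (-0.16), Psmb8 (-0.060), Psmd3 (-0.068), Psme2 (-0.083), Adrm1 (-0.16) and Pomp (-0.10), and quantile normalization turned Psmb6 (-0.019), Psmb7 (-0.0032) and Pomp (-0.078). Leaving out 1 library gave Psmb7 -0.15 to 0.24, Psmb8 -0.26 to 0.54, Psmb10 -0.12 to 0.74, Psma3 -0.76 to 0.19, Psme1 -0.53 to 0.078, Psme2 -0.40 to 0.51, Psmg4 -0.28 to 1.14, Nfe2l1 -0.34 to 0.0089, Pomp -0.18 to 0.34 and Uchl5 -0.032 to 2.02. The cause was not tested.

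A replicate block left the differences the same and called 0 genes and 0 members, with a smallest adjusted p of 0.78 among members. Same-numbered IP and Input libraries deviated from their group means with correlations of -0.10, 0.25 and -0.17. Those of differently numbered libraries ran from -0.25 to 0.19. With 3 libraries in each group these values cannot tell whether same-numbered libraries share a pool. TPM keep no depth, so low members such as Psmb8 and Psmg4 have an unknown counting error.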
